A study of Mus musculus with 6 samples.

Results

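The epidermal kallikreins described here are the 10 kallikrein-related peptidase genes Klk5 to Klk14, chosen by name as the family members of the epidermis out of 26814 genes with counts. All 10 had counts in every library, with at least 330 counts and 14.2 CPM (counts scaled to a common library size), and all 10 passed the filter on low counts.

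The RNA came from the top lip of adult female mice on a C57BL/6J background, with 3 wild type libraries (WT1 to WT3) and 3 libraries labelled KO (KO1 to KO3), 1 library per mouse. The KO animals, called knockout mice by the study, carried Gtf2ird1 tm1Hrd, a targeted allele of the transcription factor gene Gtf2ird1. No other allele or treatment is given for either group. The study saw overgrown, wrinkled lips in these KO mice and describes such overgrowth in homozygotes and not in heterozygotes. The study took lip tissue to study effects in the epidermis. Total counts per library ran from 20164081 to 29491767, and 3 counts in a library corresponded to 0.0986 to 0.154 CPM, a limit that covers counting error only. Gtf2ird1 itself was at 78.2, 70.2 and 70.7 CPM in WT and at 166, 162 and 144 CPM in the libraries labelled KO, a log2 fold change of 1.11 ± 0.13 (SE, edgeR quasi-likelihood test, adjusted p = 0.0018). The transcript of the targeted gene was thus higher, not lower, under the KO label. Counts summed over a gene do not show which exons the reads came from, and directions are given throughout for libraries as labelled.

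Kallikreins are secreted serine proteases that are made as inactive precursors in the granular layer of the epidermis and activated outside the cell. In the outermost layer they cut the proteins that hold dead keratinocytes together, which lets these cells be shed, and they also process antimicrobial peptides and cytokines. Klk5 and Klk14 cut after basic residues and can activate other kallikreins, Klk7 cuts after large hydrophobic residues, and LEKTI, the product of Spink5, is their main inhibitor in skin.

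The 10 genes lie side by side on the plus strand of chromosome 7, chr7:43690418-43851181 (GRCm38), a span of 160764 bases that runs Klk14, Klk13, Klk12, Klk11, Klk10, Klk9, Klk8, Klk7, Klk6 and Klk5. The narrowest gap between neighbours was 819 bases, between Klk9 and Klk8, and the widest was 41362 bases, between Klk13 and Klk12. Sequence upstream of 3 of these genes is shown. Klk8 had the lowest p of the family, Klk10 was the one gene with a negative log2 fold change, and Klk13 was the one gene with GGATTA, the core sequence that the GTF2IRD1 protein is known to bind, in its promoter window, which is why these were chosen. Each line gives the 250 bases before the RefSeq start site (GRCm38.p6, plus strand, 5′ to 3′), at chr7:43797327-43797576 for Klk8, chr7:43780804-43781053 for Klk10 and chr7:43712317-43712566 for Klk13. Capitals mark GGATTA on either strand.
Klk8: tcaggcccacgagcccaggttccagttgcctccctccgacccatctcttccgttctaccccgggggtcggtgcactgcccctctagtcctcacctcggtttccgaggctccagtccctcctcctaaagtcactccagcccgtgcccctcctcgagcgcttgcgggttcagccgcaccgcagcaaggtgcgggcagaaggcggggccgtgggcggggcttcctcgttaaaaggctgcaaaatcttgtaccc
Klk10: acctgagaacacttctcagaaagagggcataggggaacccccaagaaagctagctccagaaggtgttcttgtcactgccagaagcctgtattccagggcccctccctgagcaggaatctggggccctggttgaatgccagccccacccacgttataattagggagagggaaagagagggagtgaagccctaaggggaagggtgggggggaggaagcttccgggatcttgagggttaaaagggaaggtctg
Klk13: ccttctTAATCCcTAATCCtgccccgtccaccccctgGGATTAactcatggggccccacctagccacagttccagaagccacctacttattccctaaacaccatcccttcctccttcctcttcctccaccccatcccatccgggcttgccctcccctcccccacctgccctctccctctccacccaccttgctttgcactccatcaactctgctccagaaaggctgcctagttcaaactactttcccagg

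Promoter windows from 250 bases before to 50 bases after the start site were searched on both strands, 12 windows for the 10 genes among 32851 windows in all. The 3 matches to GGATTA in Klk13 began at positions -244 and -237 on the minus strand and -213 on the plus strand, counted at the leftmost base from the start site. At least 1 match was found in 7.06% of all windows. An element of the interferon-response type was found in 1 of the Klk11 windows and in 3.44% of all windows. None of the 12 windows held the AP-1 site TGANTCA, the grainyhead-type site AACCNGTT or the TATA box letters TATAAA, which were found in 7.81%, 2.09% and 13.6% of all windows. A match is a string of letters and says nothing of binding.

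Expression of 5 of the 10 kallikreins was higher in the libraries labelled KO and that of 0 was lower, against 4.38% of the 15009 tested genes called higher and 2.09% called lower (adjusted p under 0.05 over all tested genes). The 5 called genes, Klk9, Klk8, Klk7, Klk6 and Klk5, are the last 5 of the row, an unbroken stretch at chr7:43791891-43851181 of 59291 bases, and their fold changes ran from 2.05 to 3.33. The other 5, Klk14 to Klk10, did not pass the threshold. At an unadjusted p under 0.05 in the same edgeR fit 8 of the 10 were higher and 0 lower, against 13.5% of all tested genes higher. The edgeR exact test and DESeq2 each called 7 kallikreins higher, adding Klk13 and Klk11, where they called 7.76% and 8.93% of all genes tested higher, while limma-voom called the same 5, beside 4.08%. Without a filter on low counts 6 were called, adding Klk13, beside 3.41% of all genes. None of these called a kallikrein lower. Over the 10 kallikreins the median log2 fold change came to 1.08, beside -0.02 for all tested genes. The log2 fold change was above 0 in 9 of the 10, beside 48.0% of all tested genes. In 7 of the 10 genes every library labelled KO lay above every WT library, which was the case for 13.5% of all tested genes. As lip is a mixed tissue, more keratinocytes of the granular layer and more RNA per cell cannot be told apart in these libraries.

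**Figure D1:**
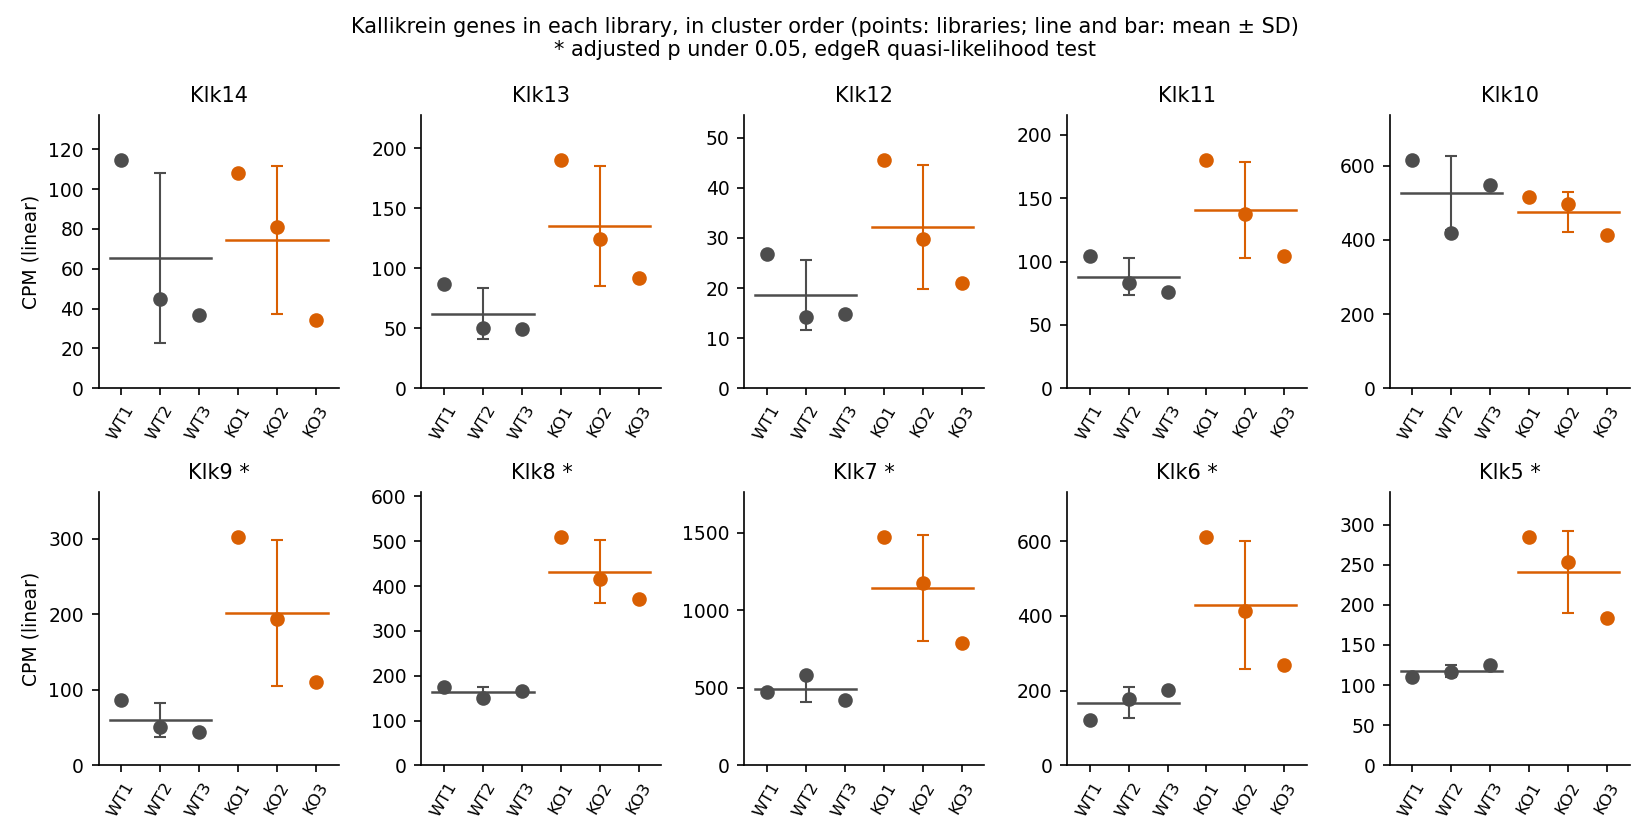
Level of each kallikrein in each library, 1 panel per gene in cluster order, with CPM on a linear axis from 0, grey points for WT, orange points for libraries labelled KO, and a line and bar for the mean ± SD (n = 3). The orange points lie above all grey points in 7 panels, and KO1 is the highest and KO3 the lowest orange point in all 10.

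Klk5, a trypsin-like enzyme at the head of the shedding cascade, was at 110, 116 and 126 CPM in WT and 284, 254 and 184 CPM in the libraries labelled KO. The WT libraries were close together and the groups did not overlap. The log2 fold change was 1.03 ± 0.18 (SE, n = 3 per group, 95% interval 0.63 to 1.44, edgeR adjusted p = 0.0143).

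Klk7, the chymotrypsin-like enzyme of the stratum corneum that cuts corneodesmosin and desmocollin, was at 472, 580 and 423 CPM in WT and 1469, 1177 and 789 CPM in the libraries labelled KO. Even KO3, the lowest of its group, was above the highest WT library. Its log2 fold change was 1.22 ± 0.25 (95% interval 0.65 to 1.79, edgeR adjusted p = 0.0285).

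Klk8, also called neuropsin, a trypsin-like protease of upper epidermis and of brain, was at 174, 151 and 166 CPM in WT and 508, 416 and 372 CPM in the libraries labelled KO. It had the widest separation of the family, with the lowest KO library 2.13 times the highest WT library. The log2 fold change was 1.40 ± 0.16 (95% interval 1.04 to 1.76, edgeR adjusted p = 0.00174). Klk8 shares 382 exon bases, 24.8% of its exons, with 2310002F09Rik, an antisense transcript whose gene runs along the opposite strand from Klk14 to Klk8, and the strand setting of the counting is not given in the sources used here. That transcript was at 1.05 to 2.61 CPM in the 6 libraries, and its log2 fold change was -0.01 (edgeR adjusted p = 0.982).

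Klk6, a trypsin-like enzyme also abundant in myelinating cells, was at 121, 178 and 202 CPM in WT and 610, 412 and 268 CPM in the libraries labelled KO. The groups did not overlap, though KO1 was 2.28 times KO3. Its log2 fold change was 1.36 ± 0.31 (95% interval 0.65 to 2.08, edgeR adjusted p = 0.0430).

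Klk9, one of the less studied family members, was at 86.4, 51.3 and 44.1 CPM in WT and 302, 193 and 110 CPM in the libraries labelled KO. It had the largest fold of the 10, 3.33, and also a wide spread, since WT1 was 1.96 times WT3 and KO1 was 2.75 times KO3. The log2 fold change was 1.73 ± 0.39 (95% interval 0.85 to 2.62, edgeR adjusted p = 0.0395).

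Among the 5 genes that did not pass, Klk13 and Klk11 came nearest. Klk13 was at 86.7, 50.1 and 49.6 CPM in WT and 190, 124 and 91.6 CPM in the libraries labelled KO, with a log2 fold change of 1.12 ± 0.31 (95% interval 0.40 to 1.84, edgeR adjusted p = 0.0710). Klk11 was at 104, 83.4 and 76.2 CPM in WT and 180, 138 and 105 CPM in the libraries labelled KO, with a log2 fold change of 0.68 ± 0.22 (95% interval 0.18 to 1.17, edgeR adjusted p = 0.0909). Neither overlapped between the groups, but KO3 exceeded WT1 by a factor of only 1.06 for Klk13 and 1.004 for Klk11. Klk12, the least abundant, was at 26.7, 14.2 and 14.8 CPM in WT and 45.5, 29.9 and 21.0 CPM in the libraries labelled KO, so that WT1 lay inside the other group. Its log2 fold change was 0.79 ± 0.33 (95% interval 0.02 to 1.56, edgeR adjusted p = 0.163).

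Klk14, which activates and cuts alongside Klk5, was at 114, 44.6 and 37.0 CPM in WT and 108, 80.9 and 34.2 CPM in the libraries labelled KO. The highest library was a WT one and the lowest was a KO one. Its log2 fold change of 0.19 had an interval from -0.97 to 1.35 (edgeR adjusted p = 0.826), which spans 0 and reaches past the estimates for Klk5 and Klk7. Klk14 shares 287 exon bases, 22.6% of its exons, with the same antisense transcript.

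Klk10, whose activity as a protease is poorly defined, was at 615, 418 and 548 CPM in WT and 515, 496 and 414 CPM in the libraries labelled KO. The groups overlapped and the log2 fold change was -0.15 ± 0.18, with a 95% interval of -0.57 to 0.27 (edgeR adjusted p = 0.604). The upper bound of this interval was below the lower bound for each of the 5 called genes, the nearest being that of Klk5 at 0.63. Those 5 were picked by their calls in this same fit, which favours high lower bounds. Among the others, the Klk10 interval overlapped those of Klk14, Klk12 and Klk11 and not that of Klk13, which began at 0.40. Klk10 lies 6480 bases from Klk9, the called gene with the largest fold.

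**Figure D2:**
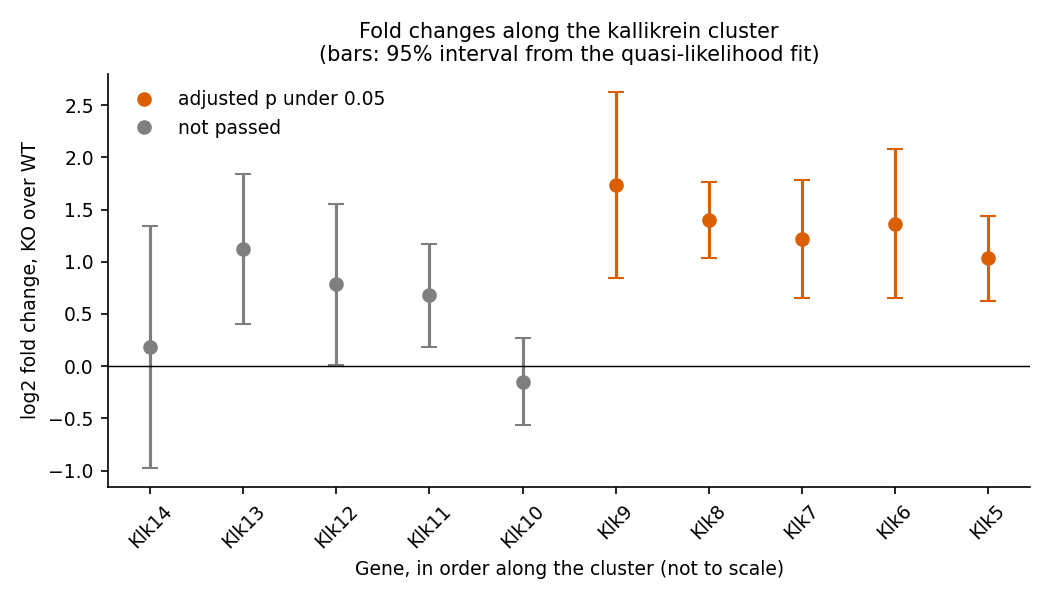
Log2 fold change, KO over WT, of each kallikrein in its order along the cluster (spacing not to scale), with bars for the 95% interval and orange points for an adjusted p under 0.05. The 5 orange points are the last 5 genes of the row, from Klk9 at 1.73 to Klk5 at 1.03, and Klk10 beside them is at -0.15.

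Per kilobase of exon, the kallikreins spanned a wide range, and the order of the most abundant ones differed between the groups. In RPKM, which is CPM divided by the exon length in kilobases, Klk10 was at 384 ± 72.9 (SD, n = 3) in WT and 346 ± 39.3 in the libraries labelled KO, and Klk7 was at 259 ± 42.3 and 604 ± 180. Klk10 ranked 1, 2 and 1 in the WT libraries and 3, 2 and 2 in those labelled KO, whereas Klk7 ranked 2, 1 and 2 in WT and was first in all 3 labelled KO. Klk8 followed at 106 ± 7.55 RPKM in WT and 281 ± 45.2 in KO, and Klk6 at 110 ± 27.3 and 284 ± 113, so that these neighbours in the order did not differ beyond their spread in either group. Klk5 ranked 5 in all 6 libraries and Klk12 last in all 6, at 15.6 ± 5.91 RPKM in WT and 26.9 ± 10.4 in KO. From low to high, Klk13, Klk9, Klk14 and Klk11 had mean levels of 27.1 to 59.98 RPKM in WT, where each overlapped the next within its SD.

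As a share of the summed RPKM of the 10 genes, Klk10 made up 35.7%, 28.3% and 36.2% in WT and 14.3%, 17.4% and 20.04% in the libraries labelled KO. The groups did not overlap, and the mean share was 33.4% ± 4.41 in WT and 17.2% ± 2.88 in KO (SD, n = 3). The share of Klk8 was 9.32% ± 0.393 in WT and 13.9% ± 1.91 in KO, and that of Klk9 was 3.54% ± 1.02 and 6.34% ± 1.42, both without overlap. The share of Klk7 was 22.9% ± 4.86 in WT and 29% ± 1.15 in KO, with overlap through WT2 at 28.5%. Shares of 1 total move together, so these are a description and no test was made on them.

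**Figure D3:**
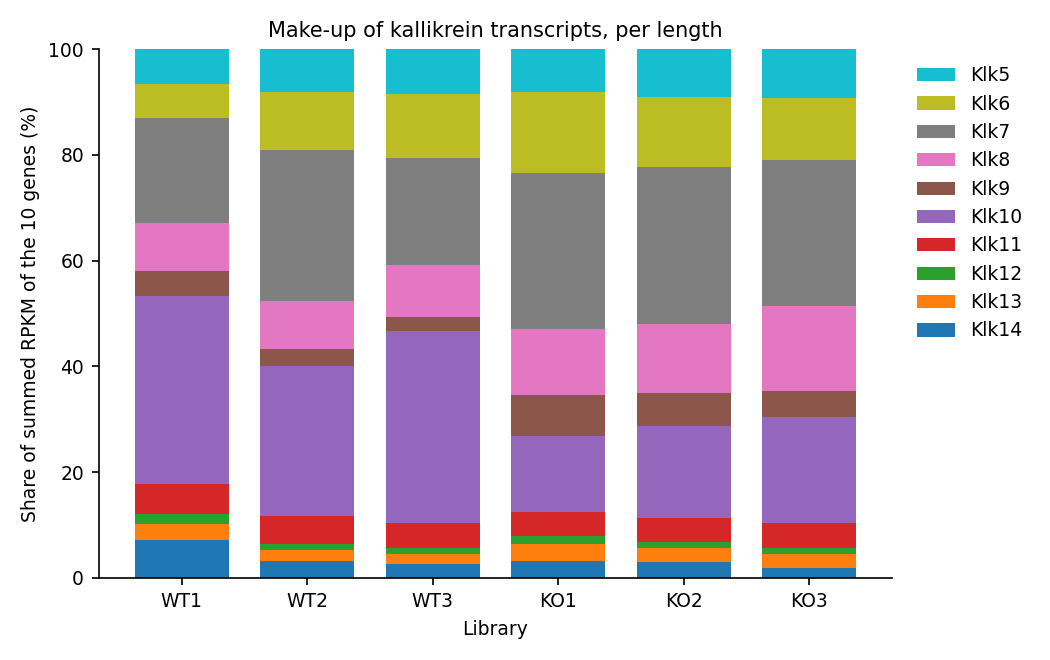
Share of each kallikrein in the summed RPKM of the 10 genes (percent), as 1 stacked bar for each library. The Klk10 band takes 28.3% to 36.2% of the WT bars and 14.3% to 20.04% of the bars labelled KO.

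Ratios between members within a library were compared for all 45 pairs. In 21 pairs the ratios of the 3 libraries labelled KO did not overlap those of WT, against 33.2% of all pairs of tested genes above 0 in every library. Klk10 was a partner in 8 of its 9 pairs among them, against 15.9% of the pairs of Klk10 with any other such gene. Most of the other kallikreins were higher in the libraries labelled KO and Klk10 was not, so this count follows in part from the levels above. The share over all genes is not a background for partners that were themselves higher. The pairs share members and are not independent. With 3 libraries against 3 the two-sided exact permutation test cannot give a p below 0.1, and after Benjamini-Hochberg adjustment over the 45 pairs the smallest value was 0.214, so that no pair could pass. The ratio of Klk10 to Klk8 in CPM was 3.52, 2.76 and 3.30 in WT and 1.014, 1.19 and 1.11 in the libraries labelled KO, with little spread within either group.

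Together the 10 genes took 0.189%, 0.180% and 0.160% of all counts in WT and 0.408%, 0.343% and 0.235% in the libraries labelled KO. Their summed level was 1761 ± 130.1 CPM in WT and 3307 ± 912 CPM in KO (SD, n = 3), a ratio of 1.88. Sums over each part of the row split it where the calls end, so their difference follows in part from the calls. The sum over Klk9 to Klk5 was 965, 1077 and 960 CPM in WT and 3173, 2453 and 1723 CPM in KO, a ratio of 2.45. The sum over Klk14 to Klk10 was 947, 610 and 726 CPM in WT and 1039, 869 and 666 CPM in KO, a ratio of 1.13 with overlapping groups.

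The kallikreins were ordered in the same way across the libraries labelled KO. KO1 was the highest, KO2 next and KO3 the lowest in all 10 genes, an order found in 25.9% of all tested genes. KO1 exceeded KO3 by a factor of 1.25 for Klk10, the smallest of the 10, 1.37 for Klk8 and 3.16 for Klk14, the largest. The same order was seen in the summed level of 19 markers of the upper epidermis, such as keratins and envelope proteins of the differentiated layers. That sum was 65543, 52596 and 40801 CPM in KO1, KO2 and KO3, against 30348 to 35415 CPM in WT. The order was not particular to that list. Sums for stressed keratinocytes, oral mucosa, salivary gland, kallikrein inhibitors, substrates, other epidermal proteases and differentiation factors had it too. Sums for basal, muscle, sebaceous, hair follicle, fibroblast and leukocyte markers and for other kallikreins did not.

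Among the WT libraries, WT1 was the highest for 7 of the 10 kallikreins, against 28.8% of all tested genes. The excess of WT1 over the mean of WT2 and WT3 was greatest for Klk14, the first gene of the cluster, with ratios of 2.80 for Klk14, 1.74 for Klk13, 1.84 for Klk12, 1.31 for Klk11, 1.27 for Klk10 and 1.81 for Klk9. The ratio was 1.10 for Klk8 and below 1 for the rest, at 0.942 for Klk7, 0.912 for Klk5 and 0.639 for Klk6.

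WT1 also stood apart in markers of the moist lining of the mouth. Krt13, a keratin of that lining, was at 2805, 111 and 20.1 CPM in WT and at 77.3, 22.5 and 27.5 CPM in the libraries labelled KO. Krt4, its partner, was at 1987 CPM in WT1 and at 9.40 to 115 CPM in the other 5 libraries. The summed level of the 7 markers was 122 to 5061 CPM in WT and 129 to 352 CPM in KO, none of the 7 was at 0 in every library, and of the 4 that were tested 0 were called. At an unadjusted p under 0.05 the edgeR quasi-likelihood fit had 1 of them lower, and the edgeR exact test called 2 lower, Krt13 and Krt4, while limma-voom called 0. DESeq2 gave no p-value for Krt13 and Krt4. Whether this tissue contributed to the kallikrein levels of WT1 was not tested. With WT1 left out, all 3 libraries labelled KO lay above WT2 and WT3 for 8 of the 10 kallikreins, the exceptions being Klk14 and Klk10, and this was so for 15.7% of all tested genes. The mean of KO over the mean of WT2 and WT3 was 4.23 for Klk9, 2.72 for Klk13 and 0.984 for Klk10.

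**Figure D4:**
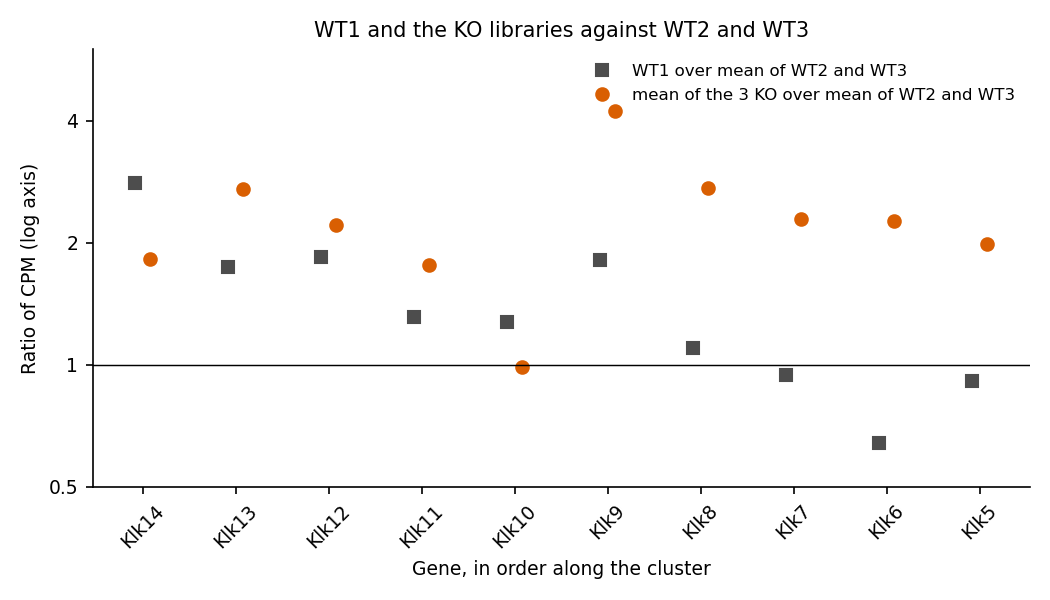
Ratio of CPM to the mean of WT2 and WT3 for each kallikrein in cluster order, on a log axis, for WT1 (grey squares) and for the mean of the 3 libraries labelled KO (orange circles). The squares are at 1.27 or above from Klk14 to Klk9 and between 0.639 and 1.10 from Klk8 to Klk5, while the circles are at 1.76 or above for every gene but Klk10.

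The calls for single kallikreins differed in how far they rested on 1 library. Klk8 was called in each of the 6 fits that left out 1 library, with log2 fold changes of 1.33 to 1.501. Klk5 was called without KO1 and without KO3 and not in the other 4 fits, where its adjusted p reached 0.0838. Klk9, Klk7 and Klk6 were called without KO3 only, and their largest adjusted p values in the other fits were 0.145, 0.126 and 0.163 (edgeR quasi-likelihood). The number of called kallikreins was 8 without KO3, which added Klk13, Klk12 and Klk11, against 16.9% of tested genes called higher in that fit. It was 2 without KO1, beside 1.98% of tested genes, and 1 without WT1, WT2, WT3 or KO2, beside 2.12%, 3.22%, 2.17% and 1.41%. The direction was the same in all 6 fits for every kallikrein except Klk14.

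**Figure D5:**
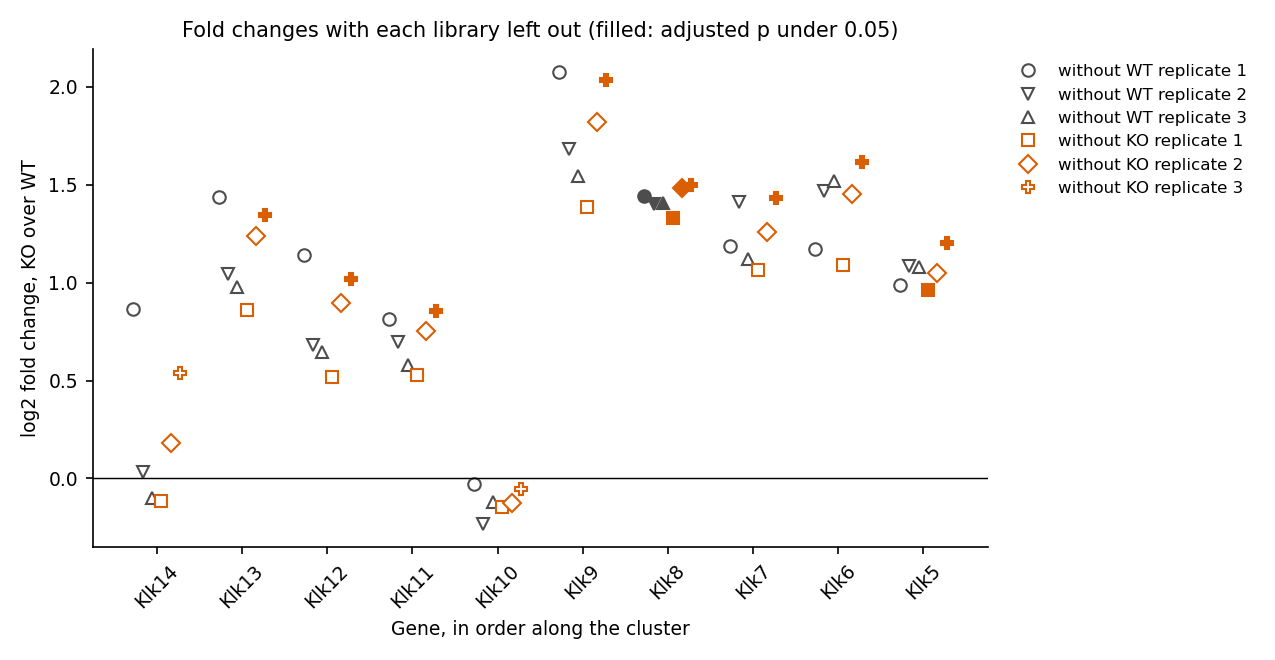
Log2 fold change, KO over WT, of each kallikrein in cluster order in the fits without 1 of the 6 libraries, with 1 symbol for each library left out and filled symbols for an adjusted p under 0.05. All 6 symbols of Klk8 are filled and lie between 1.33 and 1.501, whereas Klk9, Klk7 and Klk6 have a filled symbol only without KO3.

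The markers of the tissue's cell types gave the setting for these levels. Of 19 tested markers of the upper epidermis, 3 were called higher, among them Abca12 and Ivl, and 1, Krt2, lower, with a median log2 fold change of 0.44. At an unadjusted p under 0.05 in that edgeR fit 9 of the 19 were higher and 2 lower, and the edgeR exact test called 7 higher, DESeq2 9 and limma-voom 3, each with 1 lower. Of 12 basal keratinocyte markers 1 was called higher, with a median of 0.09 and summed levels of 11267 to 12190 CPM in WT and 11599 to 12895 CPM in KO. All 8 tested markers of stressed or wounded keratinocytes had positive values, with a median of 1.71, 2 of them called, Krt16 and Sprr1b (5 by the edgeR exact test, 4 by DESeq2 and 3 by limma-voom), and sums of 3931 to 5701 CPM in WT and 6100 to 9656 CPM in KO. Of 11 tested muscle markers 2 were called lower, with a median of -1.0 and sums of 12761 to 15962 CPM in WT and 6319 to 9852 CPM in KO. All 11 were lower at an unadjusted p under 0.05, and the edgeR exact test called 9 of them, DESeq2 8 and limma-voom 3. With 1 library left out, the calls for Ivl, for Dst (the basal marker) and for Tnnt3 and Tnni2 (the muscle markers) were lost in 5 of 6 fits. Those for Abca12, Krt16 and Sprr1b were lost in 4 and that for Krt2 in 0. Of these 4 lists none had a marker at 0 in every library, and their part in the kallikrein levels was not tested.

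Set against the summed level of the upper epidermis markers, the 10 kallikreins together were at 5.40%, 4.77% and 5.56% in WT and 6.43%, 6.32% and 5.85% in the libraries labelled KO. That sum follows its most abundant markers more than the list in general. Krt1 alone was at a mean of 8019 CPM in WT and 18219 CPM in KO, and Krt2 at 2654 and 116 CPM. The row was split where the calls end, so a difference between its parts on this scale follows in part from the calls. Klk10, at a mean of 527 CPM in WT and 475 CPM in KO, made up most of the sum over Klk14 to Klk10. The other genes of that part had folds of 1.14 for Klk14, 2.18 for Klk13, 1.72 for Klk12 and 1.60 for Klk11. Klk9 to Klk5 were at 2.98% ± 0.227 in WT and 4.58% ± 0.318 in KO (SD, n = 3), with every KO library above WT. Klk14 to Klk10 were at 2.26% ± 0.488 in WT and 1.62% ± 0.0344 in KO, with every KO library below WT. These are values without a test.

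The inhibitors of kallikreins were not called in either direction, 0 of 9 tested, with a median log2 fold change of -0.15. At an unadjusted p under 0.05 in the same edgeR fit 1 was higher and 3 were lower. The edgeR exact test and DESeq2 each called Spink5 higher and Spink6 and Wfdc12 lower, and limma-voom called 0. Spink5, which encodes LEKTI, was at 210, 283 and 354 CPM in WT and 959, 845 and 270 CPM in the libraries labelled KO. KO1 and KO2 lay far above WT while KO3 lay inside it, and the log2 fold change was 1.29 ± 0.43 (edgeR adjusted p = 0.0998). Spink6, a smaller inhibitor of the same family, was at 3.99, 4.12 and 6.93 CPM in WT and 2.46, 2.43 and 2.698 CPM in KO, a log2 fold change of -0.98 ± 0.26 (edgeR adjusted p = 0.0648).

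Of 9 tested substrates, 2 were called higher and 1 lower, with a median log2 fold change of 0.56. Dsg1b, a desmoglein of the cell contacts that kallikreins cut, was at 95.1, 119 and 124 CPM in WT and 368, 259 and 185 CPM in those labelled KO (log2 fold change 1.27 ± 0.25, edgeR adjusted p = 0.0248). Il1b, a cytokine whose precursor can be activated by Klk7, was low, at 0.653, 0.893 and 0.630 CPM in WT and 3.58, 1.94 and 3.48 CPM in KO (log2 fold change 2.03 ± 0.33, edgeR adjusted p = 0.0113). It reached the 1 CPM of the filter only in the libraries labelled KO. The filter thus kept Il1b for being high there, and its p and call are no support for a difference. With 1 library left out it was tested in 3 fits and called in 1, that without WT2. Smpd1, the acid sphingomyelinase of the barrier, was lower, with a log2 fold change of -0.67 ± 0.16 (edgeR adjusted p = 0.0469), a call lost under 4 of 11 alternatives and in 4 of the 6 fits that left out 1 library, where the adjusted p ran from 0.0119 to 0.240. Dsg1b lost its call in 4 of those 6 fits, being called without KO1 and without KO3. Flg, which encodes profilaggrin, had a log2 fold change of 0.82 ± 0.31 and did not pass (edgeR adjusted p = 0.132). The edgeR exact test called 4 substrates higher and 1 lower, DESeq2 5 and 1, and limma-voom 2 and 0.

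Of 16 other tested proteases of the epidermis, 2 were called higher and none lower, with a median log2 fold change of 0.22. Casp14, a caspase of terminal differentiation, had a log2 fold change of 1.08 ± 0.26 (edgeR adjusted p = 0.0471), and Tmprss4, a membrane serine protease, one of 0.66 ± 0.13 (edgeR adjusted p = 0.0288). The call for Casp14 was lost under 3 of 11 alternatives (largest adjusted p = 0.0555, with limma-voom) and in each fit that left out 1 library except that without KO3, and the call for Tmprss4 in 4 of those 6 fits. Asprv1, the most abundant of them, was at 1432 to 1934 CPM in WT and 1351 to 2576 CPM in KO. Of 18 tested transcription factors of keratinocyte differentiation 1 was called in that fit, Fosl1, with a log2 fold change of 1.38 (edgeR adjusted p = 0.009). The median was 0.11, and at an unadjusted p under 0.05 in the same fit 3 were higher and 2 lower. The edgeR exact test and DESeq2 each called 2 higher, Ehf and Fosl1, and limma-voom called Fosl1.

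Within 100 kilobases of the cluster, 1 neighbouring gene was called by the edgeR quasi-likelihood test. Siglece, a lectin of myeloid cells upstream of Klk14, was at 1.38, 1.32 and 1.44 CPM in WT and 9.01, 3.68 and 4.07 CPM in those labelled KO (log2 fold change 2.004 ± 0.37, edgeR adjusted p = 0.0207). Its call was lost in 3 of the 6 fits that left out 1 library (largest edgeR quasi-likelihood adjusted p = 0.102). Zfp719 had a log2 fold change of 1.02 (edgeR adjusted p = 0.110). Ctu1, between Siglece and Klk14, had a log2 fold change of 0.02 (edgeR adjusted p = 0.962), and Klk15, the next tested kallikrein beyond Klk5, one of -0.94 (edgeR adjusted p = 0.0605). Of 9 other kallikrein genes in the data 2 were tested, Klk15 and Klk1b26, and 0 were called. Both were lower at an unadjusted p under 0.05 in the same edgeR fit, both were called lower by the edgeR exact test and DESeq2, and 1 of them, Klk1b26, by limma-voom. Klk1b26 was at 1.02, 1.11 and 1.26 CPM in WT and 0.205, 0.0658 and 0.503 CPM in the libraries labelled KO. It passed the filter only through WT, where it was higher, so its p-values and calls are no support for a difference. Klk4, next to Klk5, had 3 to 5 counts in every library. The Klk1b genes are close copies of one another whose reads counting may have split, and their levels are uncertain.

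The genes whose levels across the 6 libraries were most like the mean of the kallikreins were found by the root mean square difference of centred log2 CPM, whose median over all 15009 tested genes was 0.606. The nearest were Aldh1l2 at 0.0365, Gm16516 at 0.0893 and Krt6a, a keratin of stressed epidermis, at 0.112, followed by Agpat9, Galnt6, Csrnp1, Trex2, 2010109I03Rik, Lce1g and Hbegf, the last at 0.146. Krt6a was at 1778, 1409 and 1281 CPM in WT and 3316, 2621 and 2152 CPM in the libraries labelled KO. Among the kallikreins themselves Klk11 ranked 11 by this measure, while Klk14 ranked 6100 and Klk10 ranked 6574. Likeness over 6 libraries is a description and no test was made on it.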

How the data were processed

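Top lip RNA of 3 WT and 3 KO mice was sequenced as described in the study. The deposited values are raw read counts per gene, which the authors obtained with TopHat2 2.0.8 and Bowtie2 2.1.0 against GRCm38 and with HTSeq, per the submitters' processing notes. The strand setting is not given in the sources used here. Tests covered the 15009 genes that reached 1 CPM in 3 or more libraries (99.8% of counts). Groups followed the labels, 0 columns were left unused, and the genotypes were compared with edgeR 4.0.16 (R 4.3.3), using TMM factors, glmQLFit and glmQLFTest, with Benjamini-Hochberg adjustment over all tested genes and a threshold of 0.05. Standard errors and 95% intervals come from that fit, and CPM and RPKM use its library sizes and GENCODE exon lengths (14243 tested genes had one). Each library came from 1 mouse, so p-values set the group difference against the variation between mice. With 1 library per mouse, that variation cannot be separated from dissection or library preparation.

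Alternatives were the edgeR exact test, DESeq2 1.42.0, limma-voom 3.58.1, other scalings and filters, a replicate block, a length correction and leaving out each library. The named genes are the 10 kallikreins, Gtf2ird1, the 10 genes nearest in profile, genes within 100 kilobases, and from each gene list those past the threshold and the most abundant. The kallikreins and the gene lists were chosen with earlier results of these data known. Promoter windows are from RefSeq, GRCm38.p6. Protein sequences were not analysed here.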

Additional observations from a re-analysis of the deposited data

How the results depend on the processing

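The sign of the log2 fold change and the call were tried under 11 alternatives and with each of the 6 libraries left out. Over the 10 kallikreins, 137 of the values under these settings kept direction and side of the threshold, 20 kept direction but no longer passed, 10 newly passed and 3 changed sign. No setting called a kallikrein lower. The genes higher numbered 657 in all and the genes lower 314, against 1165 and 1073 with the exact test and 1511 and 898 with DESeq2. The genes lower numbered 207 with DESeq2 size factors, 204 with no filter and 204 with at least 10 counts in every library.

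With 1 library left out, genes higher numbered 208 to 2496, genes lower 18 to 2395 and kallikreins higher 1 to 8, the upper ends all being without KO3. Without KO3, 5 of the 10 genes nearest in profile were shared. On the log2 scale Klk14 went from 0.19 to -0.10 without WT3 and -0.11 without KO1 (-0.11 to 0.86 over the 6 fits), and Klk10 to 0.0054 with the length trend removed. With 1 library left out, the range was -0.10 to 2.42 for Slpi, -0.021 to 0.34 for Serpina12, -0.23 to 0.0056 for Serpinb6a, -4.11 to 0.91 for Krt4, -0.10 to 0.14 for Ctu1 and -0.34 to 0.24 for 2310002F09Rik. Ctu1 went to -0.037 with upper-quartile factors, and 2310002F09Rik to 0.025 with DESeq2, 0.013 with its size factors and 0.022 with no filter. The median of the mucosal list ranged from -1.95 to 0.64 (without WT1) and that of the leukocyte list from -0.038 (without KO3) to 0.49. The causes were not tested.

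WT and KO libraries share replicate numbers, and the deviations of same-numbered libraries from their group means correlated at -0.19, 0.29 and 0.31. KO2 and KO3 correlated best with the WT library of their own number, and KO1 with WT2, at 0.41. Deviations within a group of 3 sum to 0, so these values cannot decide whether the numbers pair the mice. The labels give no pairing, and the main fit used none. With a replicate block 580 genes were higher (3.86% of those tested) and 217 lower, and 6 kallikreins were called higher, with Klk13 and Klk11 gained and Klk6 lost (adjusted p = 0.0753). With 3 libraries per group and 1 tissue piece per mouse, a difference smaller than the intervals given, as for Klk14, was not detectable. The lowest count of any kallikrein was 330.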

Other observations

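Other lists of cell type markers, not described above, gave these values. Of 10 sebaceous gland markers 1 was called lower, with a median log2 fold change of -0.37. At an unadjusted p under 0.05 in the edgeR quasi-likelihood fit 5 of them were lower. Of 11 hair follicle markers 2 were called lower (4 by the edgeR exact test and by DESeq2), with a median of -0.54. All 11 had negative values, and 9 were lower at an unadjusted p under 0.05 in that fit. Their sums were 8696 to 11133 CPM in WT and 5838 to 7427 CPM in KO. Fibroblast markers had 0 calls of 8 tested, a median of -0.56 and 2 lower at an unadjusted p under 0.05 by the edgeR quasi-likelihood test, with 1 called lower by the edgeR exact test and DESeq2 and 0 by limma-voom, and leukocyte markers 1 call of 9, higher, and a median of 0.21. Of 3 tested salivary gland markers 2 were called higher, Aqp5 and Lpo, and 1 had a negative log2 fold change. The summed level of that list was 13.6 to 17.3 CPM in WT and 59.0 to 121 CPM in the libraries labelled KO. Aqp5 made up most of it, at means of 10.6 and 68.7 CPM. Lpo passed the filter only through the libraries labelled KO, so its call is no support for a difference. Of the untested markers, Muc19 and Pigr had lower means in KO, and Bpifa2 and Smr3a had at most 2 counts in any library.

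Klk1b24, a close copy of other Klk1b genes and not tested because of low counts, had 0 counts in all 3 WT libraries and 19, 19 and 5 counts in the libraries labelled KO. The cause was not tested.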
